A study of Bos taurus with 6 samples.

Results

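The insulin-like growth factor (IGF) system was followed through 10 genes in the testis of calves and bulls: the ligand IGF1, the receptors IGF1R, IGF2R and INSR, and the binding proteins IGFBP2, IGFBP3, IGFBP4, IGFBP5, IGFBP6 and IGFBP7. The genes were taken by their symbols from a table of 47249 cattle genes, and each symbol had 1 entry. Total RNA, depleted of ribosomal RNA, had been sequenced from testis tissue of 6 healthy Wandong cattle, 1 library per animal. No treatment is named for them. Of the animals, 3 were calves of 3 months, not yet mature, and 3 were bulls of 3 years. Where values are listed without names, they stand in the order of the animals' numbers. The tissue pieces came from the middle of the testis, so every level is a mean over all cell types in a piece, and each age is represented by 3 animals. Levels are FPKM values (fragments scaled by transcript length and by the size of the library), which are per length and can be set side by side between genes. The tables used here hold no counts, so no counting interval is given. Positions are on the ARS-UCD cattle assembly, with which all 10 loci overlapped by symbol, and their strand is not given in the tables.

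IGF1 and IGF2 are small peptide hormones. IGF1R, a receptor tyrosine kinase, binds both of them and passes the signal through IRS adaptors to PI3K and AKT, and INSR, the insulin receptor, is its closest relative. IGF2R, the cation-independent mannose 6-phosphate receptor, has no kinase and carries IGF2 to the lysosome. The IGF binding proteins hold the ligands outside the cell and can block them or deliver them to the receptors. In the testis, IGF1 is made by somatic cells, mainly Leydig and Sertoli cells, and signalling through INSR and IGF1R takes part in Sertoli cell proliferation before puberty.

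The library labelled calf 3 stood apart from the other calves and went against its tissue label. The summed FPKM of 6 Sertoli cell markers was 1786 in calf 1, 1456 in calf 2 and 14.8 in calf 3, and 3 of the 6, GATA4, FSHR and WT1, had an FPKM of 0 there. The summed FPKM of 6 Leydig cell markers was 1389, 1087 and 0.502 in the same order, with CYP17A1 and CYP11A1 at 0 in calf 3. In the other direction, 4 oligodendrocyte markers summed to 12115 in calf 3 and to between 3.02 and 5.49 in the other 5 libraries, and 3 astrocyte markers summed to 2465 against 59.5 to 145. The calf 3 library also had the lowest summed FPKM, 587066 against 732130 to 1098715 elsewhere. The comparison of each of the 10 genes is therefore given with all 6 libraries and without calf 3, which leaves 2 calves against 3 bulls.

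The bulls also differed from calf 1 and calf 2 in their marker genes. The 6 Sertoli markers summed to 117 to 148 in the bulls, and each was lower than in both of these calves. The 6 Leydig markers summed to 1451 to 2609 in the bulls, most of it from INSL3 (1403 to 2262). Of these 6, INSL3 and STAR were higher in every bull than in both of these calves, and the others overlapped them. The 6 germ cell markers summed to 32.3 and 35.0 in calf 1 and calf 2 and to 12121 to 13755 in the bulls, where 5 of the 6 were higher. The 5 stromal markers summed to 575 in calf 1, 297 in calf 2 and 43.9 to 69.0 in the bulls, and the 5 peritubular myoid markers to 35.1, 47.2 and 60.3 to 69.9. Of the myoid markers, 3 were higher in every bull than in both of these calves. DES was lower, at 14.7 and 24.0 in these calves and 6.91 to 7.10 in the bulls, and CNN1 overlapped. In such bulk tissue, fewer cells of a type and less RNA per cell cannot be told apart, and the part of these cell types in the results on the IGF genes was not tested.

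All 10 genes passed the filter on low values (FPKM of at least 1 in at least 3 libraries), and 9 of them reached that level in at least 5 libraries. IGFBP5 reached it in 4, the 3 calves and bull 3. A gene was called where the adjusted p of limma was under 0.05 and the change on the log2(FPKM + 1) scale was at least 1 in size. With all 6 libraries, 4 of the 10 were called: IGF1R and IGFBP2 were higher in bulls, and INSR and IGFBP5 were lower. The share of 40% is close to the background, since 45.3% of all 18115 genes tested passed, 35.7% with the higher level in bulls and 9.61% with the lower. Without calf 3, 8 of the 10 were called, with IGF2R, IGFBP4, IGFBP6 and IGFBP7 also lower, against 51.7% of 17329 genes, 39.5% higher and 12.2% lower. That filter drops genes found in the calves alone, and with an FPKM of at least 1 in 2 of the 5 libraries the counts were again 2 higher and 6 lower, against 51.6% of 19848 genes, 37.7% higher and 13.9% lower. The median log2 fold change of the 10 genes was −1.0 with all libraries and −1.65 without calf 3, while that of all genes tested was 0.43 and 0.51. Quantile normalization took that median to −0.26 and the calls over all genes from 6474 higher and 1741 lower to 3827 and 4538, and under it 0 of the 10 were called higher and 4 lower. The groups did not overlap for 5 of the 10 with all libraries, where 67.4% of all genes did not, and for 9 of the 10 without calf 3, where 84.2% did not.

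**Figure D1:**
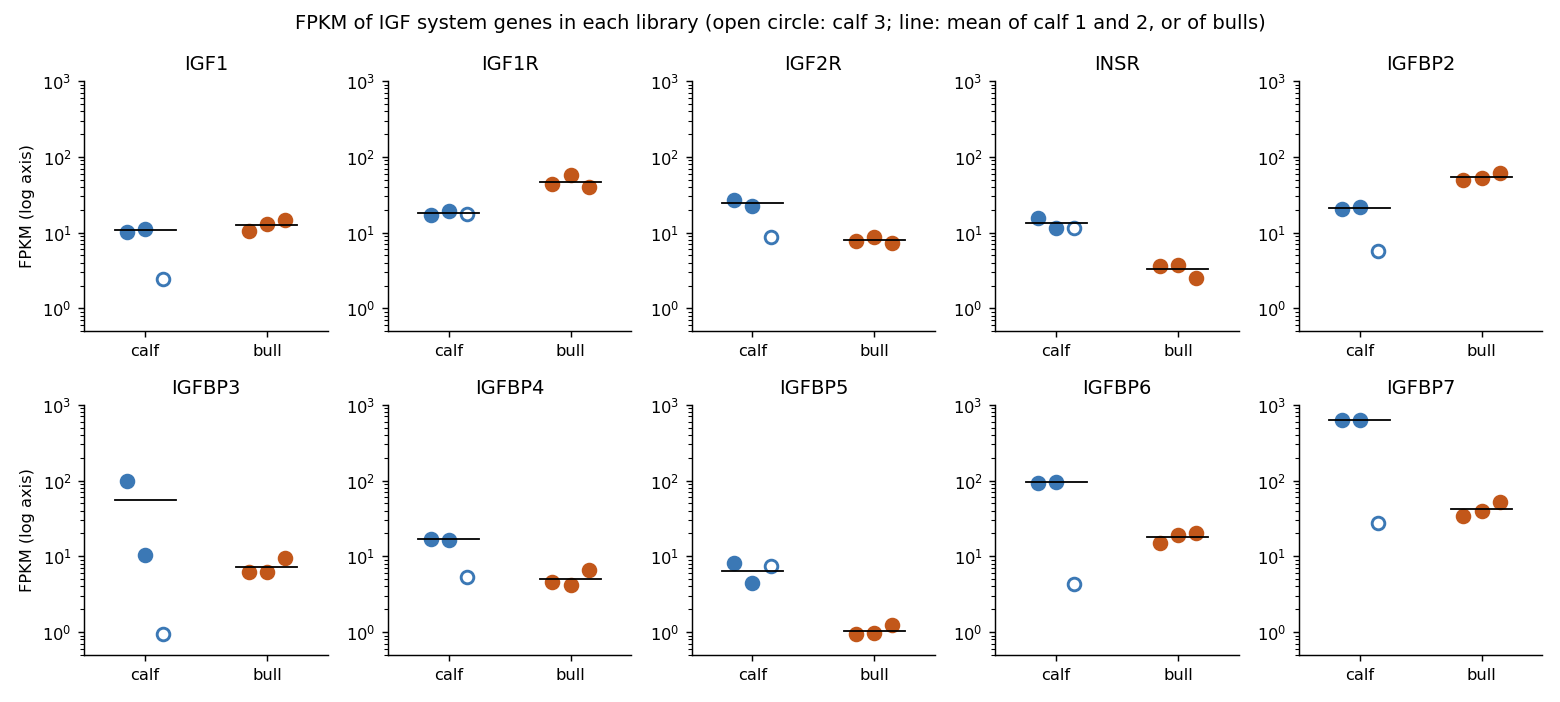
FPKM (log axis) of each gene in each calf and bull library, 1 panel per gene, with calf 3 as an open circle and the line at the mean of calf 1 and calf 2 or of the 3 bulls. Calf 3 sits far below the other calves for IGFBP7, IGFBP6, IGFBP3 and IGF1 and beside them for IGF1R, INSR and IGFBP5.

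Calf 3 was the main source of spread within the calves. On the log2(FPKM + 1) scale it lay at least 2-fold below the mean of calf 1 and calf 2 for 7 of the 10 genes. Of all genes tested, 29.2% lay at least 2-fold away in either direction. In plain FPKM, the distance was 58.5-fold for IGFBP3, 23.1-fold for IGFBP7, 21.9-fold for IGFBP6 and between 2.80-fold and 4.31-fold for IGF1, IGFBP2, IGFBP4 and IGF2R. IGF1R, INSR and IGFBP5 were the genes within 2-fold. Calf 1 and calf 2 differed by at least 2-fold in FPKM + 1 for 1 of the 10, IGFBP3, and for 2.12% of all genes tested.

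**Figure D2:**
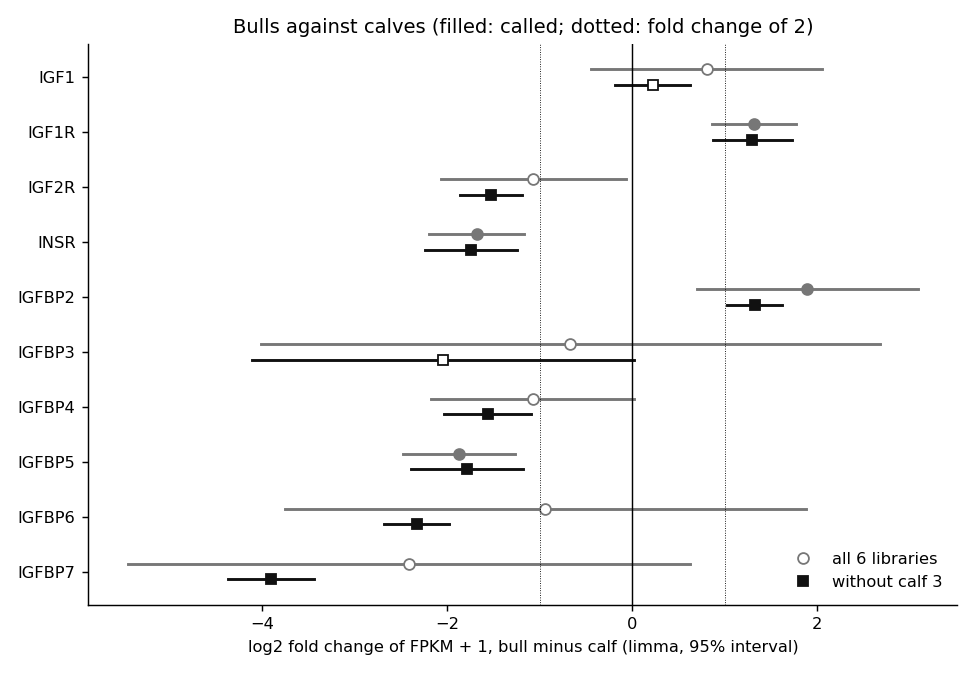
Log2 fold change of FPKM + 1, bull minus calf, from limma for each gene, with its 95% interval, for all 6 libraries and without calf 3; filled symbols are called and dotted lines mark a fold change of 2. The intervals of IGFBP3, IGFBP6 and IGFBP7 with all libraries span 0, and those of IGFBP6 and IGFBP7 lie wholly below it without calf 3.

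The ligand gene IGF1 (ENSBTAG00000011082, chr5:66107775-66264083) was not called. Calf 1 had 10.1 FPKM, calf 2 had 11.2 and calf 3 had 2.48, against 10.4, 13.2 and 14.7 in the bulls, so the groups overlapped. The log2 fold change was 0.81 (SE 0.51, adjusted p = 0.224) with all libraries and 0.22 (SE 0.17, adjusted p = 0.259, 95% interval −0.18 to 0.63) without calf 3. Of the 20 alternatives tried, 1 gave a call, with every library scaled to the same sum over tested genes (log2 fold change 1.03, adjusted p = 0.0496).

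The value of IGF1 is the sum of 22 transcript entries, and the entries behind it were not the same in calves and bulls. They comprise 3 Ensembl transcripts, 3 other assembled entries, and 16 entries that the authors' assembly named as antisense to IGF1. The Ensembl transcripts summed to 6.53, 7.42 and 1.38 FPKM in the calves, and to 0.744, 1.37 and 2.89 in the bulls. The antisense-named entries summed to 0.0664, 0.0285 and 0.00199 FPKM in the calves and to 6.14, 8.96 and 7.38 in the bulls. They thus made up under 1% of the IGF1 value in each calf and 59.1%, 68.1% and 50.1% in the bulls. The share of the Ensembl transcripts was 64.5% in calf 1, 66.1% in calf 2 and 7.16% to 19.7% in the bulls. The other assembled entries summed to 2.82 to 4.45 FPKM in these libraries, but from different entries. TCONS_00305029 was 3.53 and 3.79 in calf 1 and calf 2 and 2.46, 0.0561 and 0.383 in the bulls. TCONS_00305045 and TCONS_00305046 were 0 in both calves, and in the bulls 1.04, 0.328 and 4.06, and 0, 2.44 and 0.

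When IGF1 was rebuilt from its Ensembl transcripts alone, a choice made after the data were seen, its log2 fold change was −1.08 (SE 0.57, adjusted p = 0.157) with all libraries. Without calf 3 this IGF1 level fell by 1.66 (SE 0.34, adjusted p = 0.00445), and the mean of calf 1 and calf 2 was 4.18-fold that of the bulls. The summed antisense-named entries were above an FPKM of 1 in the bulls alone, so they would enter a test only through the group where they are high, and no test of them is given. Among single entries, ENSBTAT00000014713, an Ensembl transcript, stood at 2.95 and 3.45 FPKM in calf 1 and calf 2 and at 0.0445 to 0.342 in the bulls, while IGF1-AS8 was listed at 0 in all 3 calves and stood at 0.901 to 2.34 in the bulls. The antisense-named entries lie within the span of IGF1. The library kit kept the strand, but whether the quantification used it is not stated, and where it did not, reads from either strand of the locus cannot be told apart. Such a make-up was uncommon: of 2801 tested genes with antisense-named entries, 169 (6.03%) had over 50% of their value from these in every bull and under 50% in calf 1 and calf 2.

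**Figure D3:**
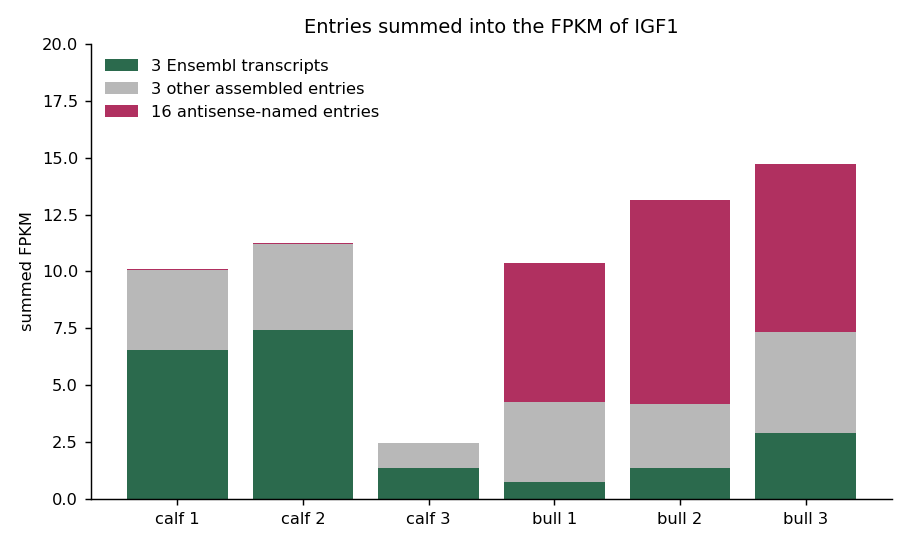
Summed FPKM of the entries that make up IGF1 in each library, stacked as the 3 Ensembl transcripts, the 3 other assembled entries and the 16 antisense-named entries. The bars have similar heights in calf 1, calf 2 and bull 1, but the Ensembl part is 6.53 and 7.42 FPKM in the calves and 0.744 in bull 1.

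IGF1R (ENSBTAG00000021527, chr21:7780293-8080394), the signalling receptor for both IGFs, was higher in bulls. Its FPKM was 17.1, 19.5 and 17.6 in the calves and 44.0, 57.3 and 39.5 in the bulls. Every bull lay above every calf, and calf 3 lay between the other calves. IGF1R rose by 1.32 on the log2 scale (SE 0.18, adjusted p = 0.00141), from 18.0 ± 1.27 (SD, n = 3) to 46.9 ± 9.26 FPKM (SD, n = 3), or 2.60-fold. Without calf 3 the rise was 1.3 (SE 0.17, adjusted p = 0.000709). The call depends on the scaling of the libraries: with quantile normalization the change of IGF1R was 0.57 and below the fold threshold, and with the medians set equal it was 0.82.

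INSR (ENSBTAG00000012687, chr7:16058828-16183062), the insulin receptor, went the other way. Its FPKM was 15.5, 11.3 and 11.6 in the calves and 3.66, 3.69 and 2.55 in the bulls. All calves, calf 3 included, lay above all bulls. INSR fell by 1.68 (SE 0.21, adjusted p = 0.000901), and the calf mean of 12.8 ± 2.32 FPKM (SD, n = 3) was 3.88-fold the bull mean of 3.30 ± 0.647 (SD, n = 3). Without calf 3 it fell by 1.74 (SE 0.20, adjusted p = 0.000373). INSR was called in all 20 alternatives tried, with a change of −2.49 to −1.51.

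The balance of INSR and IGF1R, which a common factor for a whole library cannot change, separated the ages. INSR per IGF1R was 0.907, 0.583 and 0.659 in the calves, and 0.0831, 0.0644 and 0.0647 in the bulls. Calves thus had nearly as much INSR as IGF1R or somewhat less, and each bull had over 10 times more IGF1R than INSR. As a log2 ratio, the calf mean was −0.51 ± 0.33 (SD, n = 3) and the bull mean −3.83 ± 0.21 (SD, n = 3), which differ by −3.33, or 10-fold (two-sided exact permutation test, p = 0.1, the smallest that 3 against 3 can give). Without calf 3 the difference was −3.37 (two-sided exact permutation test, p = 0.2, the smallest that 2 against 3 can give). Each gene alone already separated the ages, in opposite directions. The p of the ratio could therefore take no other value, and the test adds nothing to the 2 single results.

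Single transcripts of both receptors were read from the transcript table, in which 44.2% of 23212 tested transcripts passed, 34.8% with the higher level in bulls and 9.37% with the lower. Of the 45 transcript entries of the 10 genes, 15 were tested, 2 were called higher and 3 lower. Without calf 3, 12 were tested, 2 were called higher and 6 lower, against 50.2% of 21421 transcripts, 39% higher and 11.1% lower. With the looser filter of 2 of 5 libraries, 11 of 18 were called, 3 higher and 8 lower, against 47.2% of 27415 transcripts, 34.2% higher and 13% lower. These counts include entries that passed the filter only through the group where they were high, such as INSR-207, so they are a description. IGF1R-202 was 2.32, 2.42 and 5.62 FPKM in the calves and 14.2, 18.3 and 25.6 in the bulls, with no overlap, and rose by 2.23 (SE 0.36, adjusted p = 0.00277), or by 2.56 without calf 3 (SE 0.25, adjusted p = 0.000501). IGF1R-201 was 13.4, 15.2 and 10.4 FPKM in the calves and 29.5, 38.5 and 13.5 in the bulls, so bull 3 lay among the calves, and its change of 0.91 (SE 0.40, adjusted p = 0.104), or 0.77 without calf 3 (adjusted p = 0.169), was not called. The share of IGF1R-202 in the sum of both was 14.8% and 13.7% in calf 1 and calf 2, 35.0% in calf 3, 32.5% and 32.1% in bull 1 and bull 2, and 65.4% in bull 3.

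An antisense-named entry inside the IGF1R locus, IGF1R-AS1, was lower in every bull than in any calf. It was 1.35, 1.86 and 1.5 FPKM in the calves and 0.278, 0.511 and 0.435 in the bulls, so it passed the filter through the calves alone and no test of it is given. Without it, IGF1R rose by 1.43 (SE 0.18, adjusted p = 0.000973). Of the 10 Ensembl entries of INSR, 2 passed the filter. INSR-206, the more abundant, was 11.3, 7.54 and 7.46 FPKM in the calves and 3.26, 3.46 and 2.03 in the bulls and fell by 1.32 (SE 0.26, adjusted p = 0.00644), or by 1.41 without calf 3 (adjusted p = 0.00524). INSR-207 was 3.01, 3.01 and 3.22 FPKM in the calves and 0.240, 0 and 0.330 in the bulls, with no overlap. It passed the filter through the calves alone, so no test of it is given.

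**Figure D4:**
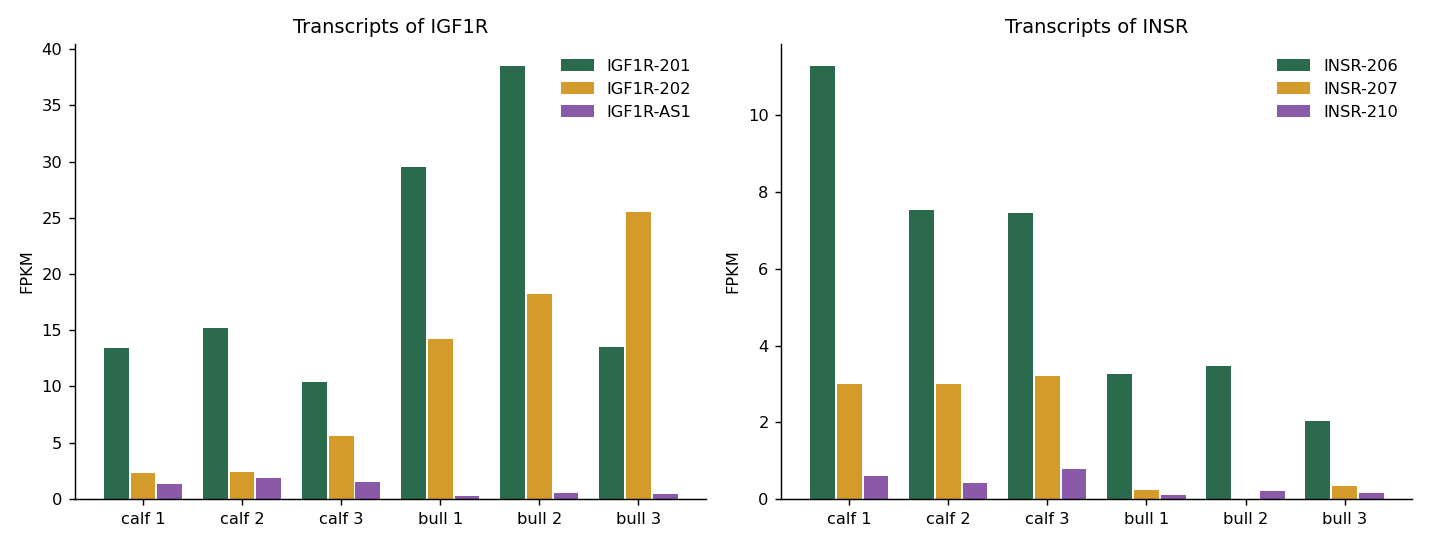
FPKM of the transcript entries of IGF1R and INSR in each library, as bars beside each other. IGF1R-202 is above 14 FPKM in every bull and at most 5.62 in the calves, while INSR-207 is about 3 FPKM in every calf, calf 3 included, and at most 0.330 in the bulls.

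IGF2R (ENSBTAG00000002402, chr9:96197493-96300017), which clears IGF2, was 26.9, 22.4 and 8.79 FPKM in the calves and 7.74, 8.64 and 7.23 in the bulls. Calf 3 lay just above the highest bull and well below the other calves. With all libraries the log2 fold change was −1.07 (SE 0.41, adjusted p = 0.0678) and was not called. Without calf 3 IGF2R fell by 1.53 (SE 0.14, adjusted p = 0.000124), and the mean of calf 1 and calf 2 was 3.13-fold the bull mean. IGF2R per IGF1R was 1.58 and 1.15 in calf 1 and calf 2, 0.501 in calf 3 and 0.151 to 0.183 in the bulls, so of the 3 receptors IGF1R alone was higher in the bulls.

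Among the binding proteins, IGFBP7 (ENSBTAG00000019368, chr6:72405716-72486115), a secreted relative that binds IGFs weakly, had the highest level in calf 1 and calf 2 and the widest difference between them and the bulls. Calf 1 had 638 FPKM, calf 2 had 621 and calf 3 had 27.3, against 33.6, 39.0 and 52.8 in the bulls. Calf 3 was below every bull, while calf 1 and calf 2 were far above them. With all libraries the log2 fold change of −2.41 (SE 1.24, adjusted p = 0.148, 95% interval −5.45 to 0.63) was not called. Without calf 3 IGFBP7 fell by 3.90 (SE 0.19, adjusted p = 9.97e-06), and the mean of calf 1 and calf 2 was 15.1-fold the bull mean.

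IGFBP6 (ENSBTAG00000021467, chr5:26878956-26895620), which prefers IGF2 to IGF1, followed the same order. It was 92.8, 96.6 and 4.33 FPKM in the calves and 15.2, 18.9 and 20.6 in the bulls. Again calf 3 was the lowest library and the other calves the highest. The change was −0.94 (SE 1.15, adjusted p = 0.518) with all libraries and −2.33 (SE 0.14, adjusted p = 2.66e-05) without calf 3, where the calf mean was 5.21-fold the bull mean. The 3 genes nearest to IGFBP6 over the 6 libraries, by Euclidean distance between centred log2 values, were GATA6, RF00012 and ADAMTS7, and those nearest to IGFBP7 were MFAP4, RF01973 and COL4A5.

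IGFBP3 (ENSBTAG00000003994, chr4:76116349-76124835), the main IGF carrier in blood, varied more among the calves than between the ages and was not called. Calf 1 had 100 FPKM, calf 2 had 10.3 and calf 3 had 0.943, against 6.29, 6.26 and 9.45 in the bulls. The calves ran from below the lowest bull to above the highest, at 37.1 ± 54.7 FPKM (SD, n = 3) against 7.34 ± 1.84 (SD, n = 3). The change was −0.67 (SE 1.37, adjusted p = 0.701) with all libraries, −2.04 (SE 0.85, adjusted p = 0.0672) without calf 3 and 0.81 without calf 1, so 1 library sets its direction. Calf 1 and calf 2 both lay above all bulls, and without calf 3 IGFBP3 was called lower under quantile normalization (−2.59, adjusted p = 0.0403) and with equal medians (−2.55, adjusted p = 0.0324). The gap between calf 1 and calf 2 was 9.67-fold in FPKM and 3.16 on the log2(FPKM + 1) scale. On that scale, 26 of all genes tested matched or exceeded it, of which 11 were higher in calf 1. The genes nearest to IGFBP3 over the 6 libraries were CXCL10, BOLA and HIST1H2BJ, but none was close. Their distances were 1.42, 1.54 and 1.62, against 0.22 to 0.31 for the nearest genes of INSR and IGFBP5. Calf 1 also had the higher stromal marker sum, 575 against 297, and endothelial marker sum, 22.3 against 8.91. Its Sertoli, Leydig and macrophage marker sums were higher as well, and its peritubular myoid and germ cell sums were lower. The part of these cell types in the gap was not tested.

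IGFBP4 (ENSBTAG00000008611, chr19:40672669-40684245), an inhibitor of IGF action that the protease PAPPA cleaves, was 16.9, 16.6 and 5.41 FPKM in the calves and 4.55, 4.14 and 6.59 in the bulls. The overlap came from calf 3, which lay between bull 1 and bull 3. The change was −1.07 (SE 0.45, adjusted p = 0.0872) with all libraries, and without calf 3 IGFBP4 fell by 1.56 (SE 0.19, adjusted p = 0.000489), the calf mean being 3.29-fold the bull mean.

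IGFBP5 (ENSBTAG00000054218, chr2:104659123-104680014), a binding protein kept in the extracellular matrix, was lower in bulls whichever calves were used. It was 8.22, 4.40 and 7.40 FPKM in the calves and 0.950, 0.963 and 1.23 in the bulls, with no overlap. IGFBP5 fell by 1.87 (SE 0.25, adjusted p = 0.00114), the calf mean being 6.37-fold the bull mean, and by 1.79 (SE 0.25, adjusted p = 0.000824) without calf 3. It reached an FPKM of 1 in 4 libraries, all 3 calves and bull 3, so it passed the filter through the group where it was high. Like INSR, it was called in all 20 alternatives, with a change of −2.64 to −1.72. Since its bull levels lay near the filter's FPKM of 1, these calls are a description. INSR and IGFBP5 were each the other's nearest among the 10 genes, but 224 and 118 other genes lay closer, led by POGLUT1, ANXA3 and ZFP36L2 for INSR and by TMTC1, BIVM and PRKCH for IGFBP5.

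IGFBP2 (ENSBTAG00000005596, chr2:104619851-104649017), a binding protein abundant in fetal and neonatal tissues, was the one binding protein called higher in bulls. Calf 1 had 20.5 FPKM, calf 2 had 21.6 and calf 3 had 5.76, against 50, 51.9 and 61.4 in the bulls, with no overlap. IGFBP2 rose by 1.89 (SE 0.49, adjusted p = 0.0178) with all libraries, where low calf 3 adds to the difference, and by 1.32 (SE 0.12, adjusted p = 0.000138) without calf 3, where the bull mean was 2.58-fold the calf mean. The call was lost without bull 1 (adjusted p = 0.0744), bull 2 (adjusted p = 0.0763) or bull 3 (adjusted p = 0.0860), with the change between 1.81 and 1.95, and under quantile normalization (change 1.16, adjusted p = 0.104).

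IGFBP2 and IGFBP5 lie beside each other on chromosome 2, with 10105 bases and no other entry of the table between them, yet their levels went in opposite directions. IGFBP2 per IGFBP5 was 2.49 and 4.92 in calf 1 and calf 2, 0.778 in calf 3, and 52.6, 54.0 and 49.9 in the bulls. The ratio was thus over 10 times larger in each bull than in any calf. IGFBP3 lies in a like pair with IGFBP1 on chromosome 4, 6451 bases apart, but IGFBP1 was at most 0.170 FPKM in the calves with a mean of 0.266 in the bulls and was not tested.

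The make-up of the binding protein RNA therefore differed between the ages. The 6 genes summed to 876 FPKM in calf 1, 770 in calf 2, 51.1 in calf 3 and 111, 121 and 152 in the bulls. IGFBP7 made up 72.8% and 80.6% of that sum in calf 1 and calf 2 and 30.4% to 34.7% in the bulls. IGFBP2 made up 2.34% and 2.81% in these calves and 40.4% to 45.2% in the bulls, where it was the leading binding protein in each library. The share of IGFBP6 was 10.6% and 12.5% against 13.5% to 15.6%, so its FPKM was lower in bulls while its share was not. In calf 3 the shares were 53.4% for IGFBP7, 14.5% for IGFBP5 and 11.3% for IGFBP2.

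**Figure D5:**
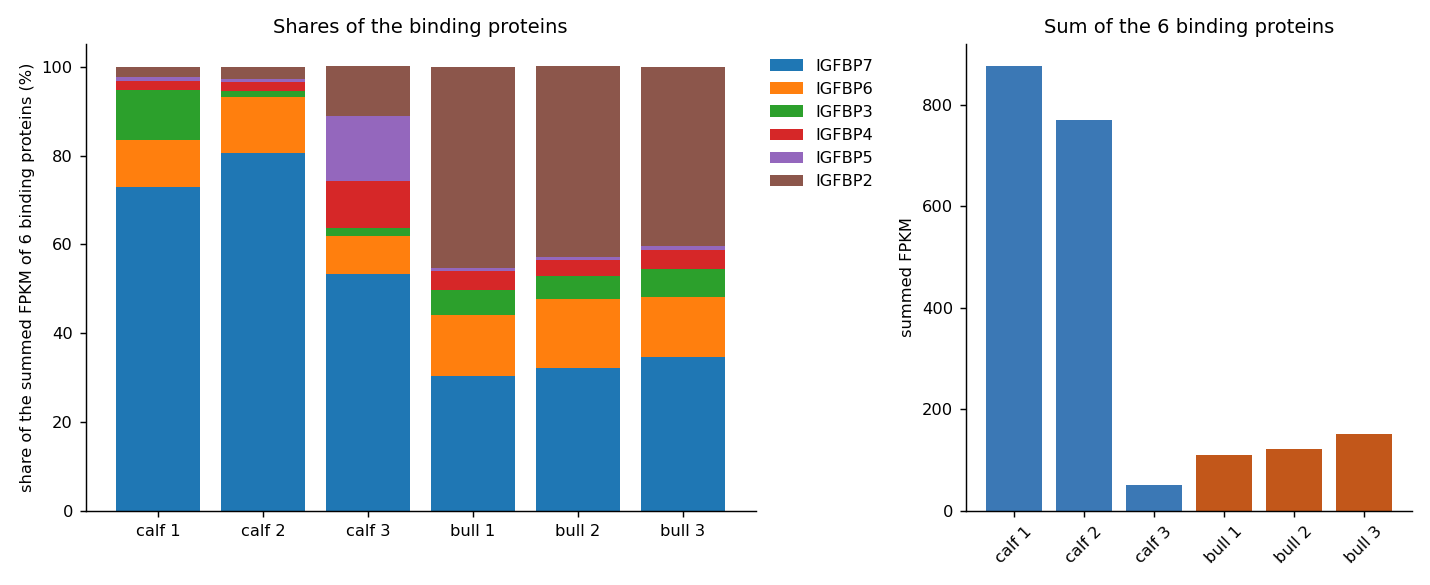
Share of each of the 6 binding proteins in their summed FPKM in each library (stacked bars, %), and the summed FPKM itself (bars from 0). IGFBP7 fills over 70% of the bars of calf 1 and calf 2, IGFBP2 fills over 40% of each bull, and the sum is 876 and 770 FPKM in these calves and at most 152 in the bulls.

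The order of the 10 levels changed accordingly. In calf 1 and calf 2 the means ran from IGFBP7 (629 FPKM) through IGFBP6 (94.7), IGFBP3 (55.2), IGF2R (24.6), IGFBP2 (21.1), IGF1R (18.3), IGFBP4 (16.7), INSR (13.4) and IGF1 (10.7) to IGFBP5 (6.31). Of the neighbours in this order, IGFBP6 and IGFBP3 overlapped, as did IGFBP3 and IGF2R, both through the spread of IGFBP3. In the bulls the order was IGFBP2 (54.5 FPKM), IGF1R (46.9), IGFBP7 (41.8), IGFBP6 (18.2), IGF1 (12.8), IGF2R (7.87), IGFBP3 (7.34), IGFBP4 (5.09), INSR (3.30) and IGFBP5 (1.05). The ranges of IGFBP2 and IGF1R overlapped, as did those of IGF1R and IGFBP7, though IGFBP2 was above IGFBP7 in each bull. IGF2R overlapped IGFBP3, and IGFBP3 overlapped IGFBP4. The place of IGF1 in the bulls rests on its antisense-named entries, which made up 50.1% to 68.1% of its value there. Its Ensembl transcripts alone had a mean of 1.67 FPKM in the bulls, between INSR and IGFBP5, and of 6.98 in calf 1 and calf 2.

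Other genes of the pathway were read from 7 lists of 57 genes, of which 45 were tested with all libraries. Of these, 1 rose (2.22%) and 11 fell (24.4%), where 35.7% of all genes tested rose and 9.61% fell, and the median change was −0.45 where that of all genes was 0.43. Without calf 3, 4 of 43 rose (9.30%) and 17 fell (39.5%), against 39.5% and 12.2% of all genes. The same shares of all genes are the background of each single list. The counts with all libraries include IRS1, which passed the filter only through the calves, so they are a description. Leaving out 1 library changed the counts: 7 pathway genes were called without bull 3, 8 without bull 1 or bull 2, 9 without calf 2 and 21 without calf 3, against 12 with all. IGF2, the second ligand, was 136, 85.6 and 0.476 FPKM in the calves and 4.90, 12.3 and 8.82 in the bulls. Its change was −1.50 (adjusted p = 0.491) with all libraries and −3.57 (adjusted p = 0.000222) without calf 3. The genes of its binders did not move together: without calf 3, IGF2R and IGFBP6 fell, while IGF1R (1.3) and IGFBP2 (1.32) rose. The other 5 genes of its list, INS, IGFBP1, IGFBPL1, IGFALS and INSRR, were below the filter.

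Of 6 listed proteases and protease inhibitors that act on the binding proteins, 3 were tested and all 3 were called lower, while PAPPA, PAPPA2 and STC2 were below the filter. HTRA1 (−1.81, adjusted p = 0.00504, or −1.50 without calf 3) and ADAM12 (−1.75, adjusted p = 0.0465, or −2.34 without calf 3) are proteases that cleave binding proteins. STC1 (−1.02, adjusted p = 0.00375, or −1.03 without calf 3) is an inhibitor of the PAPPA proteases. The count of 3 fell to 1 without calf 2 or bull 3, and to 2 without calf 1, bull 1 or bull 2. It was also 1 with every library scaled to the same sum over tested genes. In the growth hormone axis, 1 of 5 fell, the transcription factor STAT5A (−1.17, adjusted p = 0.0275, or −1.54 without calf 3). No gene of that list was called when any 1 library other than calf 3 was left out.

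Downstream of the receptors, 4 of 15 adaptor and PI3K/AKT genes fell and 0 rose with all libraries, and 5 of 14 fell and 2 rose without calf 3. The regulatory PI3K subunits did not move together. PIK3R1 fell (−1.76, adjusted p = 0.00124, or −1.52 without calf 3), and so did PIK3R2 (−1.29, adjusted p = 0.00158, or −1.42 without calf 3). PIK3R3 stood at 0.99 (adjusted p = 0.00797), below the fold threshold, and was called higher without calf 3 (1.18, adjusted p = 0.000164). Of the genes that brake receptor signalling, 0 of 7 were called with all libraries, and 1 rose and 2 fell without calf 3.

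Of 11 mTOR and FOXO genes, 3 fell and 1 rose. The transcription factors FOXO3 (−1.44, adjusted p = 0.00765, or −1.76 without calf 3) and FOXO4 (−1.39, adjusted p = 0.0105, or −1.07 without calf 3), which AKT holds out of the nucleus, were among those that fell. The kinase MTOR rose (1.3, adjusted p = 0.00713, or 1.58 without calf 3). The 4 calls became 1 without bull 2 and 2 without bull 3. They became 3 under quantile normalization and 3 with the medians set equal, and these counts do not name the genes that changed. The call of MTOR, like that of IGF1R, may therefore depend on the scaling. Of the 3 IGF2 mRNA binding proteins, 0 were called with all libraries and 1 fell without calf 3.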

How the data were processed

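FPKM values per gene and per transcript were used as the authors deposited them, for 6 libraries. Per the methods, the authors removed low-quality reads and ribosomal reads (Bowtie2), mapped the rest (TopHat2) and assembled transcripts (StringTie). Cuffdiff and Ballgown are named for circRNA levels, and the tool behind the gene FPKM is not given in the sources used here. The UMD 3.1.1 build is named there, but 99.4% of 16434 matched symbols overlapped their RefSeq locus on ARS-UCD2.0. The FPKM of each of the 10 genes equalled the sum of its transcript entries (tolerance 0.001). Each library had 27164 to 38975 genes above 0. The tables hold no counts, so the counting error of a value cannot be given.

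Genes and transcripts with FPKM of at least 1 in at least 3 libraries were fitted on log2(FPKM + 1) with limma 3.58.1 (R 4.3.3, empirical Bayes trend, two-sided, Benjamini-Hochberg over all tested). Fold changes on this scale understate those of low genes. A call needs an adjusted p under 0.05 and a change of at least 1 in log2 units. Without calf 3 the same minimum of 3 libraries held over 5. The ratio of INSR to IGF1R was tested with scipy 1.17.1. The code was tested on simulated data. Alternatives changed the pseudocount, the filter, the scaling (quantile, medians, sums) and the libraries.

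All 10 genes are named, and of each pathway list the 2 genes with the largest change among those called both with and without calf 3. STC1, PIK3R3, MTOR, the IGF2 list and the single transcripts of IGF1 and IGF1R-AS1 were named after their values were seen. The 10 genes, the lists and the markers were chosen with earlier results of these data known. Nearest genes had the smallest Euclidean distance of centred log2 values over the 6 libraries and are given for genes that span at least 2 log2 units without calf 3. Calf 3 counts in that distance, so the nearest genes also reflect that library. No sequences are shown, since none were used here.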

Additional observations from a re-analysis of the deposited data

How the results depend on the processing

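INSR and IGFBP5 were called in all 20 alternatives that applied to every gene, IGF1R in 16 and IGFBP2 in 14. For IGFBP5, which met the filter through the calves, this is a description. For scaling, genes called higher numbered 2 with the values as deposited, but 0 under quantile normalization and 1 with medians set equal, and without calf 3 both scalings gave 0. Genes called lower numbered 2 and became 4 under quantile normalization, 4 with medians set equal, 4 with the same sum over protein-coding genes and 6 with array weights. Without calf 3 they were 7, 7 and 6 under those scalings in turn, and 6 with the filter at 2 of 5 libraries. Of the transcripts of the 10 genes, 5 were called, against 9, 9 and 10 under quantile normalization, equal medians and array weights, and without calf 3 these were 10 and 10 with both scalings, 9 with the protein-coding sum and 11 with the looser filter. Of the pathway genes, 12 were called, against 20, 19 and 22, and without calf 3 they were 24, 21, 21 and 24 in the same order. Other settings went the other way. With the same sum over tested genes, 8 pathway genes were called, and 3 of the 10 genes were called higher and 2 lower. With no filter, 11 pathway genes were called. The 12 include IRS1 and the last 24 also IRS4 and SOCS3, all below an FPKM of 1 in every bull. Over all genes, higher and lower calls went from 6474 and 1741 to 3827 and 4538 under quantile normalization.

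Leaving out each library in turn gave 1 to 2 genes called higher, 2 to 6 called lower, 4 to 8 transcripts, 7 to 21 pathway genes and 3519 to 8955 genes in all, with the lowest total without bull 1 (3551 without bull 2 and 3593 without bull 3, where fewer genes passed the filter) and the highest without calf 3. The log2 ratio of INSR to IGF1R differed by −3.46 to −3.14, and by −3.00 with 1 added to each value. IGFBP3 turned to 0.81 without calf 1 and ran down to −2.04 without calf 3. IGF1 turned to −0.34 under quantile normalization and −0.29 with equal medians, both without calf 3, and to −1.08 and −1.66 from Ensembl transcripts alone, with and without calf 3. The cause was not tested. The protein-coding and Ensembl-only alternatives were added after the data were seen.

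The shared replicate numbers name no shared animal, and deviations of same-numbered libraries correlated at 0.0277, 0.0246 and 0.0341, each the best for its library but too weak to pair them. A replicate block gave 8128 genes called in place of 8215, 2 higher and 2 lower among the 10, 5 transcripts and 11 pathway genes. It changed no call among the 10. With 3 animals an age and no counts, low entries and small differences cannot be resolved.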
